A study of Zea mays with 6 samples.

Results

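The genes described here are those whose annotation names auxin, the plant hormone indole-3-acetic acid: proteins of the auxin response, proteins that bind auxin, and proteins that carry it across membranes. They were found by matching the words auxin, indole-3-acetic, SAUR or IAA with a number in the titles and descriptions of the authors' filtered array table, which has 12255 probe sets. Each probe set combines several short probes designed against a transcript. Whether these probes also match other transcripts was not checked. The letters matched 28 probe sets. Of these, 6 matched only because a human clone name (KIAA with a number) contains the letters, and they were left out by name after the tables were opened. The remaining 22 probe sets belong to 17 transcript clusters. Only 3 carry a maize gene symbol (abp1, abp4 and aic1), and all 3 gene IDs were found in the reference gene table. The other 19 are described through similarity to a protein that the annotation grades as weak for 17 and moderate for 2, so each is written below as similar to that protein ("IAA4-like").

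The samples were roots of Nongda108, a maize (Zea mays) cultivar, taken at the reproductive stage from greenhouse plants on a calcareous sandy soil given basal fertilizer. In 3 samples the maize had grown with peanut (cultivar Luhua14), here called intercropped, and in the other 3 it had grown alone, here called monocropped. Each sample was hybridised to 1 single-colour Affymetrix maize genome array. Whether the 3 samples of a group came from different plants or pots is not stated, so the p-values rest on a spread between samples that may be technical.

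In plants, auxin is sensed by receptor F-box proteins of the TIR1 type. Auxin binds a receptor together with an Aux/IAA repressor, the repressor is degraded, and auxin response factors (ARFs), the DNA-binding proteins that Aux/IAA proteins hold back, are released to act on their target genes. Many Aux/IAA genes are themselves rapidly induced by auxin, and the hormone is moved from cell to cell by influx carriers of the AUX1 type and by efflux carriers. In roots, auxin is known for its part in the formation of lateral roots, in cell elongation and in the upkeep of the meristem. None of these roles was measured here beyond the level of RNA.

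No auxin probe set differed between the cropping systems after adjustment over all 13116 probe sets tested (limma with Benjamini-Hochberg adjustment, two-sided, threshold 0.05). The smallest adjusted p among them was 0.219. Nor was any of the probe sets tested called, which makes the background 0.0% of them, with a smallest adjusted p of 0.129. At an unadjusted limma p under 0.05, 2 of the 22 auxin probe sets were lower in intercropped roots, where 723 of all tested were lower (5.51%), and 0 were higher, where 734 of all tested were higher (5.6%). These 2, an ARF1 family-like transcript and an auxin-induced protein-like transcript, are the ones whose separation between the groups was clearest. The median log2 difference of the auxin probe sets (intercropped minus monocropped, as everywhere below) was 0.08, beside 0.01 over all probe sets tested, and single values ran from -1.87 to 0.45. Within the groups the auxin probe sets varied more than most: the median pooled SD over the arrays of a group was 0.32 on the log2 scale, against 0.21 for all probe sets tested, and the median standard error of a difference was 0.22 against 0.18.

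**Figure D1:**
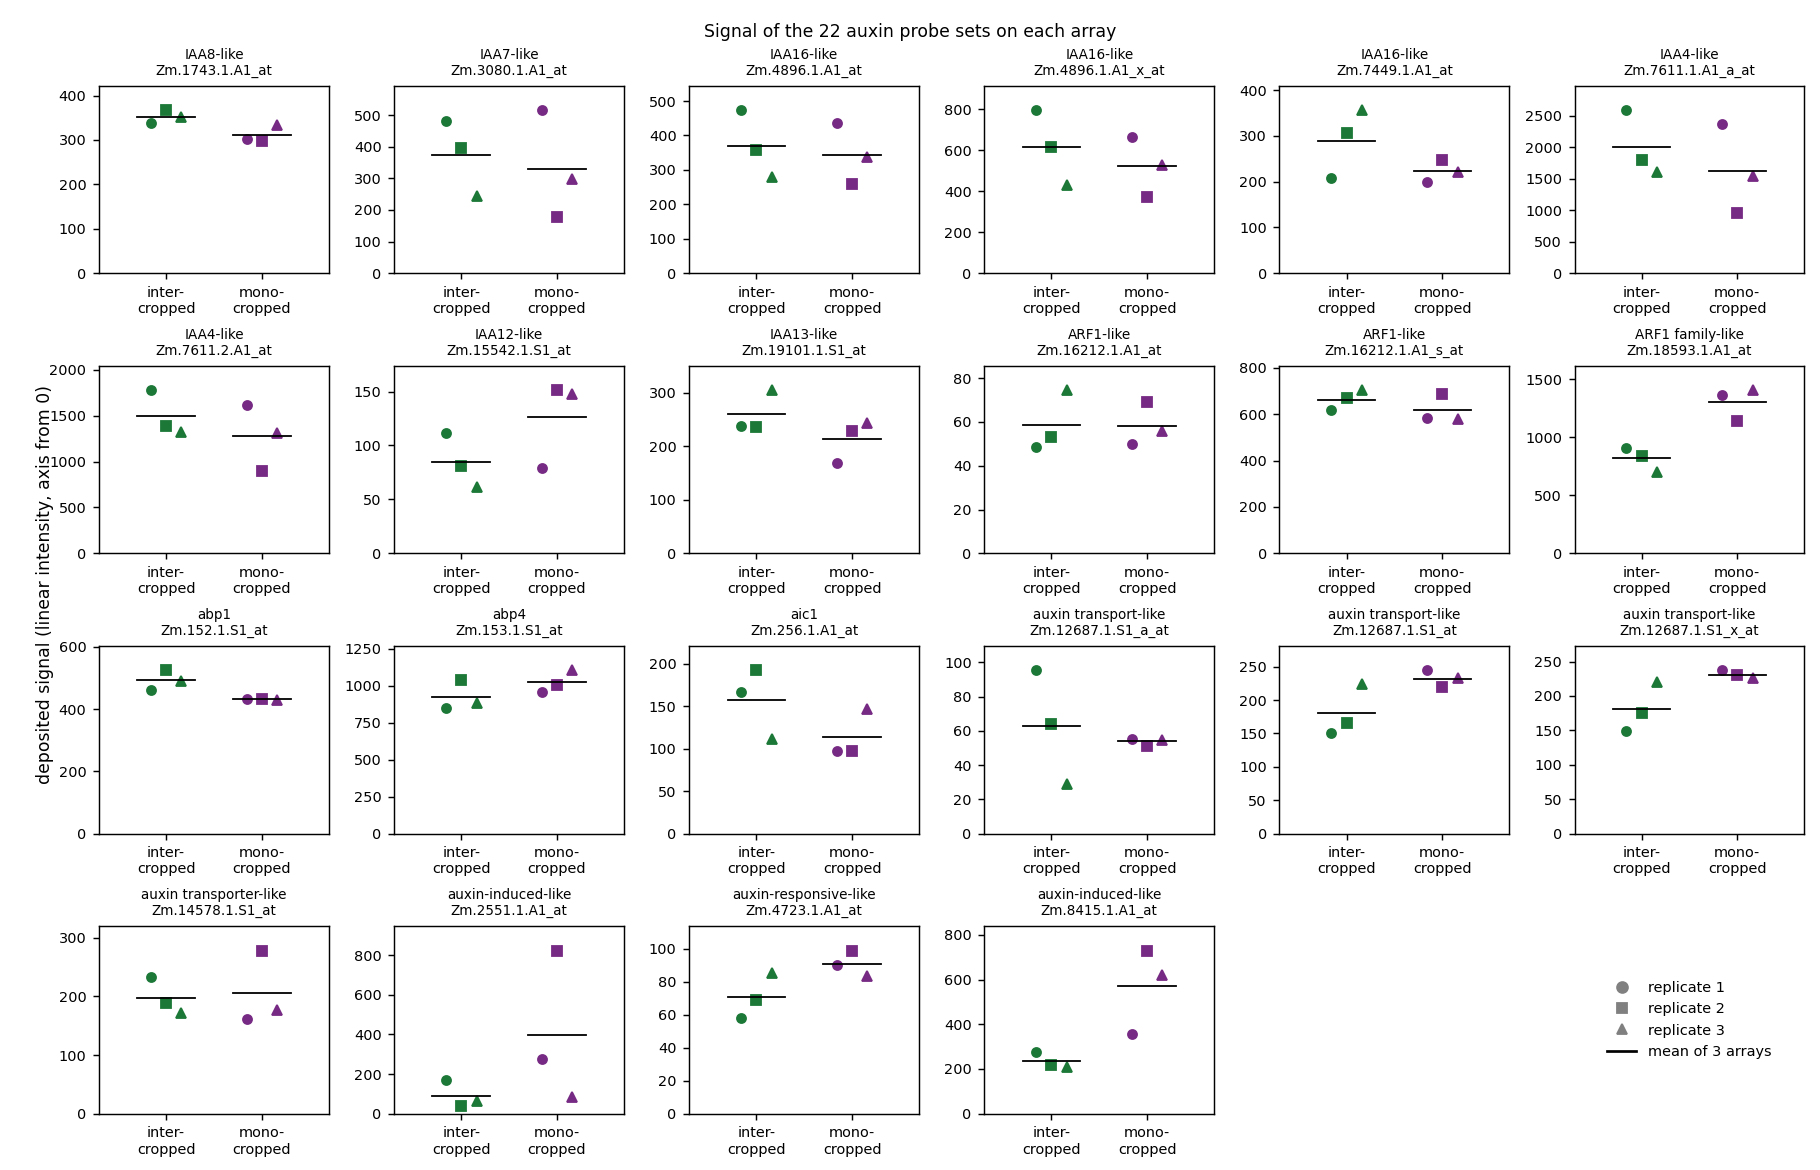
Signal of each of the 22 auxin probe sets (vertical axes, deposited linear intensity from 0) on the 3 intercropped and 3 monocropped arrays, with replicates as circles, squares and triangles and the group mean as a line. The ARF1 family-like probe set Zm.18593.1.A1_at and the auxin-induced protein-like probe set Zm.8415.1.A1_at lie lower on every intercropped array than on any monocropped array, while most other panels overlap. Axes differ between panels, since levels of different probe sets are not comparable.

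The Aux/IAA-like transcripts came first in the order of the pathway, as the repressors that auxin removes. They were represented by 9 probe sets in 7 transcript clusters, similar to the Arabidopsis proteins IAA4, IAA7, IAA8, IAA12, IAA13 and IAA16. In 8 of them the mean log2 signal was higher in intercropped roots and in 1 it was lower, with a median difference of 0.26, where 51.9% of all probe sets tested were higher. None of the 9 reached an unadjusted limma p under 0.05, which 11.1% of all tested did, and their smallest adjusted p was 0.577. The 8 to 1 split was not the same in all subsets of arrays. Without intercropped replicate 1 it was 7 to 2 with a median of 0.12, and without monocropped replicate 2 it was 6 to 3 with a median of 0.02. Whole roots were sampled, so a smaller number of cells of a type and less RNA per cell cannot be told apart here or in any result below.

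The IAA4-like transcript was measured by 2 probe sets of 1 cluster. On Zm.7611.1.A1_a_at the signal was 2585, 1802 and 1605 on the intercropped arrays 1 to 3 and 2369, 961 and 1544 on the monocropped arrays. The groups overlapped, with replicate 1 of each group high and monocropped replicate 2 lowest. The means were 1997 ± 518 and 1625 ± 708 (SD, n = 3 each), and the log2 difference was 0.36 ± 0.33 (SE, limma adjusted p = 0.737). The probe set Zm.7611.2.A1_at gave the same order of arrays. It read 1775, 1381 and 1316 in intercropped roots and 1610, 898 and 1311 in monocropped roots, and its log2 difference was 0.26 ± 0.23 (SE, limma adjusted p = 0.729). The 2 log2 differences of this cluster were within 0.11 of each other. Without monocropped replicate 2 they were 0.032 and 0.025, and without monocropped replicate 1 they were 0.68 and 0.45.

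IAA16-like transcripts were measured by 3 probe sets in 2 clusters. Zm.4896.1.A1_x_at read 795, 618 and 432 with peanut and 665, 371 and 528 alone, and Zm.4896.1.A1_at read 474, 359 and 278 with peanut and 436, 258 and 338 alone. Replicate 1 was again the highest of each group on both, and the groups overlapped. Their log2 differences were 0.24 ± 0.28 and 0.10 ± 0.26 (SE, limma adjusted p = 0.81 and 0.916), with ranges of 0.010 to 0.47 and -0.090 to 0.29 when single arrays were left out. The other cluster went through the arrays differently. Zm.7449.1.A1_at read 208, 306 and 356 in intercropped roots and 200, 248 and 221 in monocropped roots, so that 2 intercropped arrays stood above all monocropped ones and intercropped replicate 1 stood among them. Its log2 difference was 0.35 ± 0.22 (SE, limma adjusted p = 0.611), between 0.18 without intercropped replicate 3 and 0.57 without intercropped replicate 1.

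IAA12-like (Zm.15542.1.S1_at) was the 1 Aux/IAA-like probe set with a lower mean in intercropped roots. It read 111, 80.5 and 61.4 with peanut and 78.8, 151 and 148 alone. Monocropped replicates 2 and 3 were above every intercropped array, and monocropped replicate 1 fell between intercropped replicates 2 and 3, so the groups overlapped. Means were 84.3 ± 25.1 and 126 ± 40.9 (SD, n = 3 each), a log2 difference of -0.56 ± 0.32 (SE, limma adjusted p = 0.577). It lay between -0.87 without monocropped replicate 1 and -0.35 without intercropped replicate 3.

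The rule for named genes did not reach the other 3 Aux/IAA-like probe sets, which are given to complete the family. IAA8-like (Zm.1743.1.A1_at) read 338, 367 and 351 in intercropped roots and 302, 298 and 333 in monocropped roots. Every intercropped array was higher, by a small step: the log2 difference was 0.18 ± 0.12 (SE, limma adjusted p = 0.638). IAA13-like (Zm.19101.1.S1_at) had groups that overlapped and a log2 difference of 0.29 ± 0.19 (SE, limma adjusted p = 0.627). IAA7-like (Zm.3080.1.A1_at) varied most of the Aux/IAA-like probe sets within the groups, at 483, 397 and 245 against 515, 178 and 299, and its log2 difference of 0.26 ± 0.41 (SE, limma adjusted p = 0.86) turned to -0.12 without monocropped replicate 2.

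Of these 9 probe sets, 5 shared one order of arrays, a pattern picked after their values were seen. In the IAA7-like probe set, both IAA4-like probe sets and both probe sets of the IAA16-like cluster Zm.4896, intercropped replicate 1 exceeded 2 and 2 exceeded 3, while monocropped replicate 1 exceeded 3 and 3 exceeded 2. Together with 1 transport-like probe set (Zm.12687.1.S1_a_at), 6 of the 22 auxin probe sets in 4 clusters had this order (27.3%), which 738 of all 13116 tested had (5.63%). The median deviation of the 5 from their own means was 0.54, 0.12 and -0.34 on the log2 scale for the intercropped arrays 1 to 3 and 0.30, -0.58 and -0.05 for the monocropped arrays. The spread between arrays of 1 group was wider for these transcripts than their difference between the groups. Summed signals of 32 dividing-tissue marker probe sets were 24300, 19100 and 17700 on the intercropped arrays and 24100, 19700 and 24100 on the monocropped arrays. These sums were also highest in replicate 1 and lowest in replicate 3 of the intercropped group and lowest in replicate 2 of the monocropped group. Intercropped replicate 1 was also highest of its group in the sums of root, green-tissue, and seed and pollen markers. Monocropped replicate 2 was lowest of its group for root markers (17100, 15300 and 30600) and for seed and pollen markers (9680, 9400 and 9530). For green-tissue markers it was highest (5620, 7930 and 6340). The bacterial hybridisation controls, RNA added to check the array, had geometric means of 656, 1190 and 390 and of 2470, 616 and 618 in the same order. The part of dividing tissue, of other tissues or of hybridisation in the array order was not tested.

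**Figure D2:**
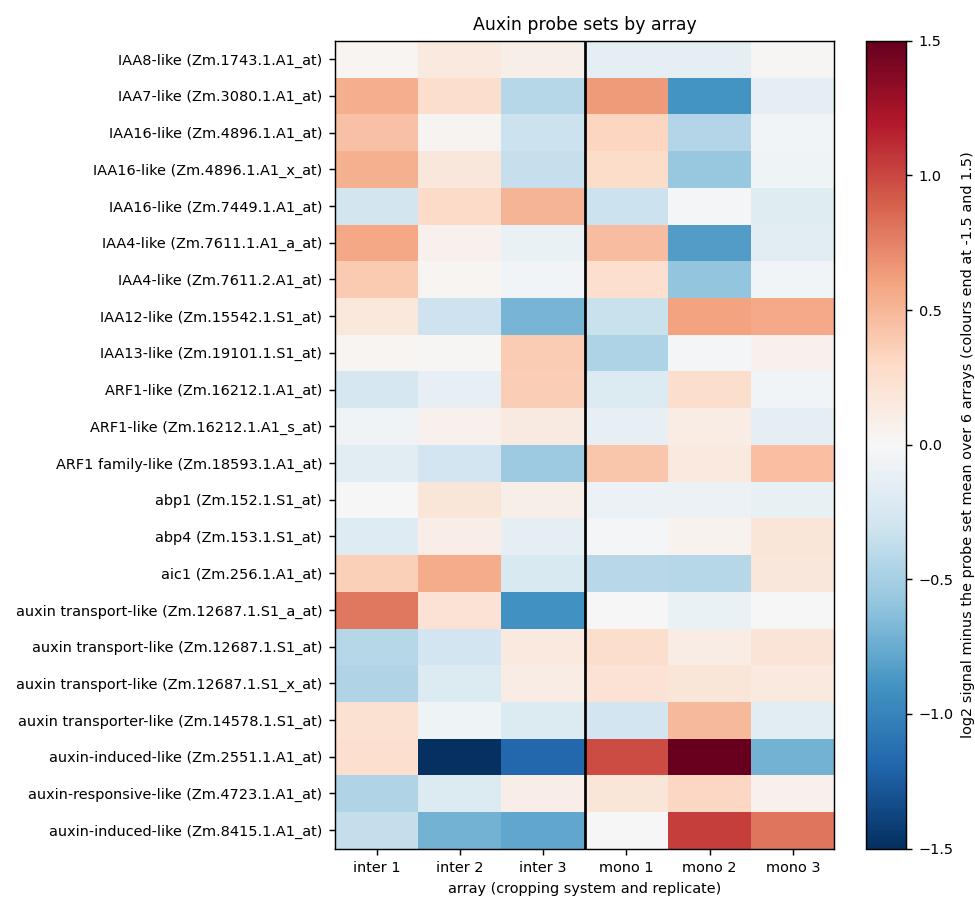
Deviation of each auxin probe set from its own mean over the 6 arrays (colour, log2 scale, ending at -1.5 and 1.5), with arrays in columns and probe sets in rows. The IAA4-like, IAA7-like and Zm.4896 IAA16-like rows are red on replicate 1 of both groups and blue on monocropped replicate 2, and the Zm.18593.1.A1_at and Zm.8415.1.A1_at rows are blue on every intercropped array.

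Auxin response factors, which bind the promoters of auxin-responsive genes, were represented by 3 probe sets in 2 clusters. The ARF1 family-like probe set Zm.18593.1.A1_at had the smallest unadjusted p of all auxin probe sets. Its signal was 911, 840 and 702 in intercropped roots and 1366, 1141 and 1403 in monocropped roots. Every intercropped array was lower than every monocropped array. The means were 817 ± 106 and 1303 ± 142 (SD, n = 3 each). The log2 difference was -0.68 ± 0.14 (SE, 95% confidence interval -1.01 to -0.34), which makes the monocropped level 1.60 times the intercropped level, with an unadjusted limma p of 0.00188 and an adjusted p of 0.219. Leaving out any 1 array gave differences between -0.77 and -0.57. In the authors' deposited table the q-value of this probe set was 14.8%, the lowest of any auxin probe set, and it was shared with Zm.8415.1.A1_at.

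The other response factor cluster, ARF1-like Zm.16212, had differences near 0 whose 95% confidence intervals included changes in either direction. One of its probe sets (Zm.16212.1.A1_s_at) read 617, 668 and 702 with peanut and 585, 687 and 581 alone, overlapping, with a log2 difference of 0.10 ± 0.13 (SE, limma adjusted p = 0.811) and a 95% confidence interval of -0.19 to 0.40. The other (Zm.16212.1.A1_at) read 48.4, 53.1 and 74.5 with peanut and 49.9, 69.1 and 56.1 alone, with 2 arrays under the signal of 50 used in the filter for testing. Its log2 difference was -0.01 ± 0.22 (SE, 95% confidence interval -0.53 to 0.52, limma adjusted p = 0.996), and the sign turned to 0.03 after quantile normalization.

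Of the auxin-binding proteins, abp1 (auxin binding protein1, Zm.152.1.S1_at), an endoplasmic reticulum and cell surface protein first isolated from maize as a candidate auxin receptor, read 463, 524 and 491 in intercropped roots and 433, 433 and 428 in monocropped roots. Every intercropped array was higher, and the monocropped arrays were nearly equal. The means were 493 ± 30.8 and 431 ± 2.88 (SD, n = 3 each), and the log2 difference was 0.19 ± 0.12 (SE, 95% confidence interval -0.08 to 0.46, limma adjusted p = 0.605). Its homolog abp4 (Zm.153.1.S1_at) had the opposite sign, at 851, 1036 and 886 with peanut and 960, 1004 and 1103 alone. There the groups overlapped, and the log2 difference was -0.15 ± 0.12 (SE, limma adjusted p = 0.711). The difference between these 2 responses was not tested.

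Non-overlap in the higher direction held for abp1 and IAA8-like, that is 2 of the 22 auxin probe sets, where 8.29% of all probe sets tested had it. In the lower direction it held for 3 of the 22 (13.6%), namely Zm.18593.1.A1_at, Zm.8415.1.A1_at and the transport-like Zm.12687.1.S1_x_at, where 8.69% of all probe sets tested had it. Counting means only, 10 of the 22 (45.5%) were lower in intercropped roots, where 48.1% of all probe sets tested were lower.

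Auxin transport was represented by 5 probe sets in 3 clusters. The influx carrier aic1 (auxin import carrier1, Zm.256.1.A1_at), related to AUX1 of Arabidopsis, had the highest positive difference of the auxin probe sets. It read 167, 192 and 111 in intercropped roots and 97.6, 96.7 and 147 in monocropped roots. Intercropped replicates 1 and 2 were above all monocropped arrays, but replicate 3 lay below monocropped replicate 3, so the groups overlapped. Means were 157 ± 41.4 and 114 ± 28.7 (SD, n = 3 each), and the log2 difference was 0.45 ± 0.26 (SE, 95% confidence interval -0.15 to 1.06, limma adjusted p = 0.578). The difference was 0.29 without intercropped replicate 2 and 0.68 without intercropped replicate 3.

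The transport-like cluster Zm.12687, similar to a putative auxin transport protein, was measured by 3 probe sets whose differences did not share a sign. On Zm.12687.1.S1_x_at the signal was 149, 176 and 221 with peanut and 237, 231 and 225 alone, and every intercropped array was lower, with intercropped replicate 3 only just so. On Zm.12687.1.S1_at it was 151, 166 and 224 with peanut and 244, 219 and 233 alone, overlapping at that same intercropped replicate 3. Their log2 differences were -0.37 ± 0.17 and -0.38 ± 0.18 (SE, limma adjusted p = 0.492 for each). Zm.12687.1.S1_a_at, with 1 array under a signal of 50, read 95.3, 64.2 and 29.2 with peanut and 55.3, 51.3 and 55.0 alone, so that its intercropped replicate 3 was the lowest array where on the other 2 probe sets it was the highest of its group. Its log2 difference was 0.07 ± 0.40 (SE, limma adjusted p = 0.966), which put 0.45 between the lowest and the highest difference of 1 cluster, and it ranged from -0.31 to 0.54 when single arrays were left out. A probe set similar to an auxin transporter splice variant (Zm.14578.1.S1_at, outside the rule for named genes) had overlapping groups and a log2 difference of -0.03 ± 0.23 (SE, limma adjusted p = 0.975).

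The 3 remaining probe sets are named only as auxin-induced or auxin-responsive, and all 3 had lower means in intercropped roots (48.1% of all tested). Zm.8415.1.A1_at, similar to a putative auxin-induced protein, read 277, 217 and 208 with peanut and 356, 729 and 622 alone. Every intercropped array was lower, and monocropped replicate 1 lay nearest to them. The means were 234 ± 37.7 and 569 ± 192 (SD, n = 3 each). The log2 difference was -1.23 ± 0.27 (SE, 95% confidence interval -1.87 to -0.59), a monocropped level 2.35 times the intercropped one, with an unadjusted limma p of 0.00254 and an adjusted p of 0.219. It stayed between -1.54 and -1.02 when single arrays were left out.

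A probe set of another cluster with the same title, Zm.2551.1.A1_at, had the largest difference of all auxin probe sets and also the widest spread. It read 168, 38.5 and 62.2 in intercropped roots and 278, 823 and 86.3 in monocropped roots. Monocropped replicate 2 stood far above the rest, while monocropped replicate 3 lay under intercropped replicate 1, and the groups overlapped. Means were 89.5 ± 68.9 and 396 ± 382 (SD, n = 3 each), a log2 difference of -1.87 ± 0.84 (SE, limma adjusted p = 0.483) whose 95% confidence interval of -3.85 to 0.10 included 0. Without single arrays it lay between -2.70 and -1.07. The auxin-responsive protein-like Zm.4723.1.A1_at read 58.2, 68.9 and 85.0 with peanut and 89.8, 98.7 and 83.2 alone. Here too the groups overlapped, at the third replicate of each, and the log2 difference was -0.37 ± 0.18 (SE, limma adjusted p = 0.517).

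**Figure D3:**
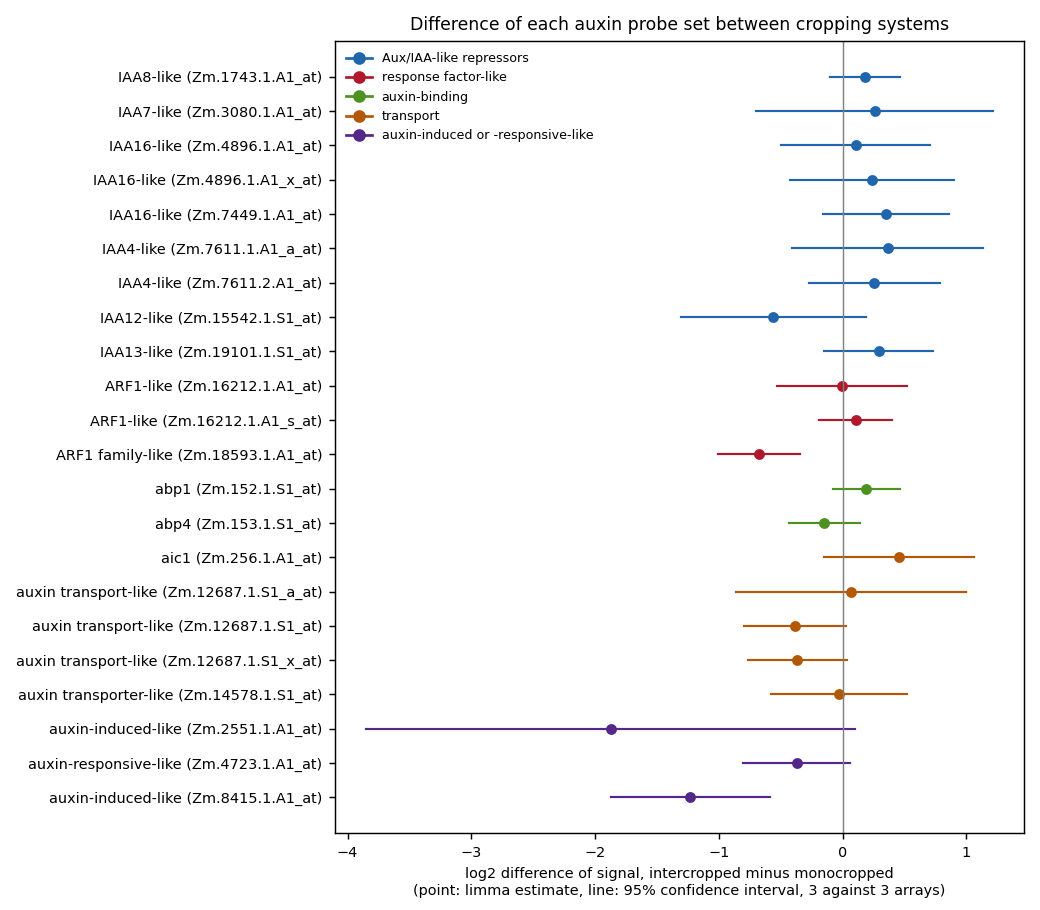
Log2 difference of each auxin probe set, intercropped minus monocropped (horizontal axis), as points with 95% confidence intervals from limma on 3 against 3 arrays, coloured by role. The intervals of Zm.18593.1.A1_at (-1.01 to -0.34) and Zm.8415.1.A1_at (-1.87 to -0.59) lie below 0, and all other intervals cross it.

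**Figure D4:**
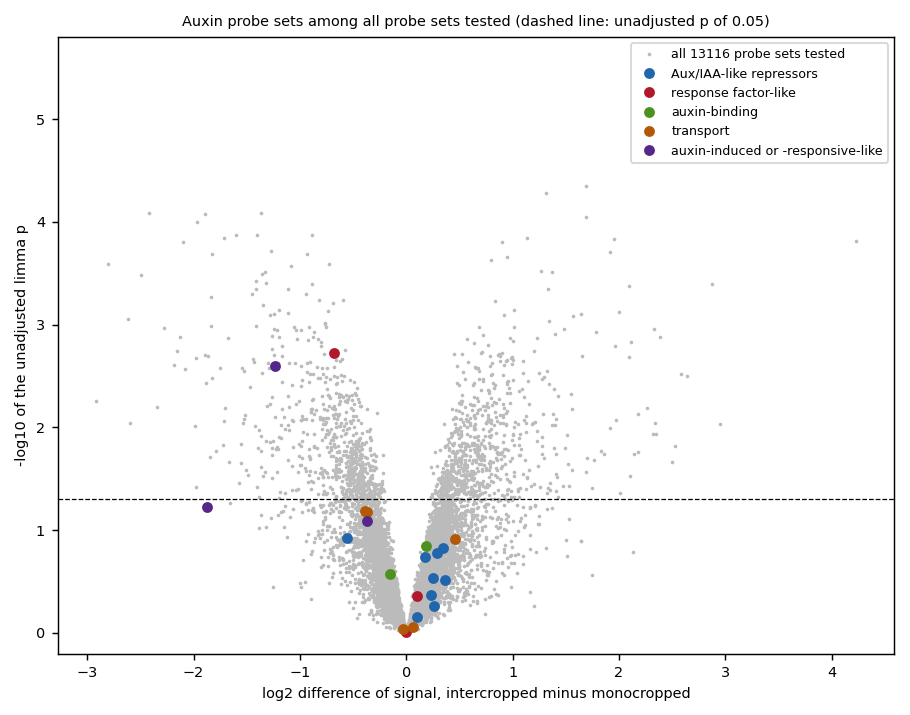
Log2 difference (horizontal axis) against -log10 of the unadjusted limma p (vertical axis) for the 13116 probe sets tested in grey and the 22 auxin probe sets in the colours of their roles. A dashed line marks an unadjusted p of 0.05, above which 2 auxin probe sets and 11.1% of all probe sets tested lie.

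The wider auxin pathway was read from 6 lists of other genes, with 71 probe sets in all, none of which was called (limma with Benjamini-Hochberg adjustment over all probe sets tested). The list of auxin synthesis and tryptophan supply, tryptophan being the amino acid from which plants make most of their auxin, had 11 measured probe sets. All 11 had lower means in intercropped roots, beside 48.1% of all probe sets tested, with a median log2 difference of -0.28. Of these, 2 had an unadjusted limma p under 0.05 (5.51% of all tested in this direction), and 4 had groups that did not overlap (8.69% of all tested in this direction). Before 4 matches with unrelated names were taken out, the list had 15 probe sets, of which 14 were lower, and with single arrays left out 9 to 11 of the 11 had lower means. The median then lay between -0.17, without monocropped replicate 2, and -0.40, without monocropped replicate 3. The aldehyde oxidase zmAO-2 (Zm.9562.1.S1_at), of an enzyme family that can oxidise indole-3-acetaldehyde to auxin and abscisic aldehyde to abscisic acid, read 257, 221 and 165 with peanut and 629, 483 and 375 alone. Every intercropped array was lower, and the log2 difference was -1.20 ± 0.24 (SE, limma adjusted p = 0.204). Tryptophan synthase alpha (Zm.13645.1.S1_at), an enzyme of tryptophan synthesis, read 351, 356 and 281 with peanut and 477, 690 and 436 alone, again lower on every intercropped array, with a log2 difference of -0.68 ± 0.20 (SE, limma adjusted p = 0.312).

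Signals of the list of conjugation and release, by which plants store auxin and set it free, lay on both sides. Of its 5 probe sets, 2 were higher and 3 lower (51.9% and 48.1% of all tested). An IAA-amino acid hydrolase-like probe set (Zm.17395.1.A1_at), of the enzymes that free auxin from its amino acid conjugates, had a log2 difference of -0.49 ± 0.28 (SE, limma adjusted p = 0.577). Leaving out monocropped replicate 2 gave -0.25. An indole-3-acetate glucosyltransferase-like probe set (Zm.4642.1.A1_at), of the enzymes that bind auxin to glucose, had -0.23 ± 0.15 (SE, limma adjusted p = 0.639). The 4 probe sets of polar transport partners all had lower means (48.1% of all tested), with a median difference of only -0.03. A P-glycoprotein-like probe set (Zm.14944.1.A1_at), of a transporter family with auxin exporters in Arabidopsis, was lower on every intercropped array, at 181 ± 13.0 against 219 ± 25.1 (SD, n = 3 each) and a log2 difference of -0.27 ± 0.14 (SE, limma adjusted p = 0.551). An AUX1-like permease (Zm.4055.1.A1_at) differed by -0.05 ± 0.17 (SE, limma adjusted p = 0.944), and its sign turned when intercropped replicate 3 or monocropped replicate 1 was left out.

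In the receptor complex and its turnover, 4 of 10 probe sets were higher and 6 lower (51.9% and 48.1% of all tested). None had an unadjusted limma p under 0.05, which 11.1% of all tested had. The TIR1-like auxin receptor probe set (Zm.4506.1.A1_at) was at 553 ± 143 with peanut and 433 ± 39.1 alone (SD, n = 3 each), with overlapping groups and a log2 difference of 0.32 ± 0.21 (SE, limma adjusted p = 0.619), which was 0.15 without intercropped replicate 2 and 0.53 without intercropped replicate 1. LOC542170 (Zm.4335.1.S1_at), annotated as a putative conjugating enzyme for RUB1, the ubiquitin-like protein that modifies cullins, had -0.17 ± 0.12 (SE, limma adjusted p = 0.658).

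The list of lateral and shoot-borne root formation was split as well, 7 of 13 probe sets higher and 6 lower (51.9% and 48.1% of all tested). At an unadjusted limma p under 0.05, 1 was higher (5.6% of all tested) and 1 was lower (5.51% of all tested). Both of these are similar to proteins of the family named after SCARECROW, a regulator of the radial pattern of the Arabidopsis root. A SCARECROW regulator-like probe set (Zm.6244.1.A1_a_at) was higher on every intercropped array, at 425 ± 52.8 against 322 ± 30.0 (SD, n = 3 each), with a log2 difference of 0.40 ± 0.15 (SE, limma adjusted p = 0.39). A scarecrow-like 6 probe set (Zm.5383.1.A1_at), near the filter value of 50, was lower on every intercropped array, at 48.9 ± 6.57 against 69.4 ± 5.35 (SD, n = 3 each), with a log2 difference of -0.51 ± 0.17 (SE, limma adjusted p = 0.348).

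Wall and division genes of kinds that auxin is known to induce in plants were measured by 28 probe sets in 20 clusters. Of these, 19 were higher and 9 lower, where 51.9% of all probe sets tested were higher. At an unadjusted limma p under 0.05, 2 were higher (5.6% of all tested) and 1 was lower (5.51% of all tested). The D-type cyclin cycD2 (Zm.1141.2.A1_at), a protein of entry into the cell cycle, read 422, 393 and 355 in intercropped roots and 233, 236 and 259 in monocropped roots. Every intercropped array was higher, with a log2 difference of 0.68 ± 0.13 (SE, limma adjusted p = 0.201). This was the highest difference among the 32 dividing-tissue marker probe sets, which belong to 18 clusters. Of the 32, 24 had lower means in intercropped roots (48.1% of all tested) and 3 were lower without overlap (8.69% of all tested). The median log2 difference of the 32 was -0.16. The beta-expansin expB7 (Zm.9566.1.S1_at), of a family of wall-loosening proteins, read 49.1, 43.1 and 76.2 with peanut and 809, 72.7 and 168 alone. Monocropped replicate 1 stood apart there, the groups overlapped, and the log2 difference was -1.98 ± 0.79 (SE, limma adjusted p = 0.419). Leaving out monocropped replicate 1 gave -1.02, leaving out monocropped replicate 2 gave -2.76, and 2 intercropped arrays were under the filter value of 50.

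The median signal of all probe sets was 135 to 142 on the 6 arrays, and 25.4% to 27.7% of probe sets had a signal below 50. The labelled tissue was checked against the marker probe sets that passed the filter on dim values. The 13 root marker probe sets had summed signals of 19482 to 22013 on intercropped and 15326 to 30647 on monocropped arrays. The 27 green-tissue probe sets, which roots should mostly lack, summed to 5250 to 6049 on intercropped and 5622 to 7925 on monocropped arrays. These 27 belong to 13 clusters. Of them, 19 had lower means in intercropped roots (48.1% of all tested) and 4 were lower without overlap (8.69% of all tested). At an unadjusted limma p under 0.05, 5 were lower (5.51% of all tested), and none was called after adjustment. The 13 seed and pollen probe sets, which roots should also lack, summed to 8729 to 9628 on intercropped and 9403 to 9684 on monocropped arrays. Since only probe sets that passed the filter were summed, these sums cannot show that green, seed or pollen transcripts were absent. The part of other tissues in the lower signals of Zm.18593.1.A1_at and Zm.8415.1.A1_at was not tested.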

How the data were processed

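The deposited series table gives a linear intensity for every probe set on every array. The authors had summarised and scaled it before deposit. The submitters' processing notes name GCOS 1.4, while the summary algorithm and the scaling target were not given in the sources used. A scaled intensity hides any change of all transcripts in one direction. The authors' deposited SAM table, per the file headers an unpaired comparison of 2 classes, gives log2 differences and a q-value as a percent. Its log2 differences equalled those computed here within 1e-14 over 12252 shared probe sets.

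Here values under 1 were raised to 1 before taking log2. After 179 controls were left out, the 13116 probe sets that reached an intensity of 50 on 3 or more of the 6 arrays were tested, intercropped against monocropped, with limma 3.58.1 in R 4.3.3 (lmFit, eBayes with trend=TRUE, two-sided), adjusted by Benjamini-Hochberg over all of them. The code was tested on simulated data. All 22 auxin probe sets passed the filter, as the authors' filter had already removed dim ones. Probe sets count singly, so a transcript cluster can appear more than once.

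Named in full were members with a gene symbol, the 10 with the smallest p, the 3 largest differences in each direction, the 3 brightest and those sharing a title. This gave 18, and 4 others are marked in the text. Each pathway list gave its 2 smallest p. The members and lists were chosen with earlier results of these data known. Matches to unrelated words were removed from the lists by name after the tables were opened. Before this, the wall and division list had 33 probe sets, 22 higher and 11 lower. The polar transport, receptor, green-tissue and dividing-tissue lists lost 1 probe set each. rum1 and sequences were not analysed here. The 14 alternatives covered normalization, dim-value filter, an added constant, the eBayes trend, a replicate block and leaving out each array. Apart from these, probe set choice was varied for the median of the auxin probe sets only.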

Additional observations from a re-analysis of the deposited data

How the results depend on the processing

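Across 14 alternatives no auxin probe set and no probe set of the 6 pathway lists was called by limma, and 2 of the auxin probe sets kept the lowest q-value, 14.8%, in the authors' deposited SAM table, where 5 of 12255 probe sets had a q-value under 5%. Over all probe sets tested the count of calls was 0, 1 with log2 of the signal plus 32, and 0 to 34 with single arrays left out, the 34 without intercropped replicate 1. The median log2 difference of the auxin probe sets was 0.08, -0.031 to 0.12 with single arrays left out (lowest without intercropped replicate 1, and 0.02 without monocropped replicate 2), and -0.015 with the KIAA matches kept, an alternative chosen after seeing the data, as was 1 probe set per cluster (0.10). The sign of Zm.16212.1.A1_at turned after quantile normalization (0.032). Signs also turned with single arrays left out, over ranges of -0.19 to 0.12 for Zm.16212.1.A1_at, -0.090 to 0.29 for Zm.4896.1.A1_at, -0.31 to 0.54 for Zm.12687.1.S1_a_at, -0.18 to 0.21 for Zm.14578.1.S1_at, -0.12 to 0.65 for Zm.3080.1.A1_at and -0.14 to 0.053 for Zm.4055.1.A1_at. The causes were not tested. With the replicate number as a block there were 0 calls, a smallest adjusted p of 0.28 among the auxin probe sets, and 1515 probe sets at an unadjusted limma p under 0.05 against 1457. The block cannot change any difference, because each number occurs on an array of each group, so the median stayed at 0.08. Deviations of same-numbered arrays from their group means correlated at 0.27, -0.07 and -0.00411 for replicates 1, 2 and 3 over probe sets. Only that of replicate 1 was over 0.1. The numbers were not treated as pairs in the main fit because the labels state no factor besides cropping. Precision is limited by the 3 arrays of each group, and Zm.16212.1.A1_at, Zm.12687.1.S1_a_at and Zm.2551.1.A1_at had arrays with a signal below 50.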
